A study of Mus musculus with 18 samples.

Results

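The genes described here are 10 enzymes, sheddases and inhibitors that act on the extracellular matrix and on cell-surface proteins: the matrix metalloproteinases Mmp8, Mmp12, Mmp14 and Mmp19, the inhibitor Timp2, the membrane proteinases Adam8, Adam9, Adam10 and Adam17, and the heparanase Hpse. They were taken by symbol from a table of 39017 genes, and all 10 were found. Each was picked with its values in the 3 groups known, so those values are given as a description. Spinal cord RNA labelled as microglial (microglia being the macrophages that live within the brain and spinal cord) was counted in 18 libraries from female mice of genotype WT that carried Tmem119-Cre:RiboTag. Tmem119-Cre acts in microglia, and RiboTag is a Cre-dependent epitope tag on a ribosomal protein. All groups share this background. The labels give total RNA as the molecule and describe no pull-down, and they state no age, dose or time. Healthy mice with control treatment gave 6 libraries (replicates 3, 4, 11, 12, 19 and 20). Control treatment in mice with EAE (experimental autoimmune encephalomyelitis, in which immune cells attack myelin, as in multiple sclerosis) gave 6 (1, 2, 9, 10, 17 and 18), called control EAE below. EAE mice given metformin, an antidiabetic drug, gave 6 (5, 6, 13, 14, 21 and 22). Whether each replicate is its own animal is not said, so the spread behind each p-value is that of libraries and may be technical.

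Matrix metalloproteinases are zinc enzymes made as inactive precursors, and they cut collagens, elastin and basement membrane proteins once their prodomain is removed. Tissue inhibitors of metalloproteinases (TIMPs) block them by binding the active site. ADAM proteinases sit in the membrane and release the outer parts of neighbouring surface proteins, a cut called shedding, which sets free cytokines, receptors and adhesion molecules. Heparanase cuts the heparan sulfate chains of proteoglycans in basement membranes and lysosomes. In EAE these enzymes are known for their part in the breakdown of the barriers around vessels and in the release of cytokines such as TNF.

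In the mm10 assembly, with positions from GENCODE M21, Mmp12 (ENSMUSG00000049723, chr9:7344381-7369499) and Mmp8 (ENSMUSG00000005800, chr9:7558456-7568485) lie on the plus strand of chromosome 9, which also holds Adam10 (ENSMUSG00000054693, chr9:70678997-70780229, plus strand). Mmp14 (ENSMUSG00000000957, chr14:54431612-54445364) and Mmp19 (ENSMUSG00000025355, chr10:128790910-128800824) are also on plus strands. Timp2 (ENSMUSG00000017466, chr11:118301069-118355740), Hpse (ENSMUSG00000035273, chr5:100679484-100719716), Adam8 (ENSMUSG00000025473, chr7:139978932-139992562), Adam9 (ENSMUSG00000031555, chr8:24949611-25016927) and Adam17 (ENSMUSG00000052593, chr12:21323509-21373632) are on minus strands.

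The promoters of the 4 genes with the lowest healthy levels per kilobase of exon are shown first, with Adam10, whose level was similar in healthy and control EAE libraries, set beside them. Sequences are from RefSeq (GRCm38.p6) and cover the 250 bases before the transcription start, 5′ to 3′ on the gene's strand. Such windows were found for 8 of the 10 genes, and Adam9 and Mmp19 had no entry. Capitals mark matches to any of 7 motifs searched on both strands: AP-1 (TGANTCA), GAS (TTCNNNGAA), ISRE (GAAANNGAA), the PU.1 core (GAGGAAGT), the E-box CACGTG, NF-kB (GGGNNTTTC) and the TATA box (TATAAA). No window held more than 1 match.
Hpse, chr5:100719717-100719966, minus strand: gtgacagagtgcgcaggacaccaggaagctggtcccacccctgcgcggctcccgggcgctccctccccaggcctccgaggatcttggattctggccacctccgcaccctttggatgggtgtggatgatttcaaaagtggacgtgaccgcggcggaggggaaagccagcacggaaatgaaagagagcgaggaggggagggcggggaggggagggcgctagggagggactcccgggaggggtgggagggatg
Adam8, chr7:139992563-139992812, minus strand: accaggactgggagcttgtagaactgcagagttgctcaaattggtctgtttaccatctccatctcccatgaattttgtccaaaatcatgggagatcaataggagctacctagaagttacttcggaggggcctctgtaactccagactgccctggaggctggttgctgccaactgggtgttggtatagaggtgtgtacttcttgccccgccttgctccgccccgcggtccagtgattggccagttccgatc
Mmp8, chr9:7558179-7558428, plus strand: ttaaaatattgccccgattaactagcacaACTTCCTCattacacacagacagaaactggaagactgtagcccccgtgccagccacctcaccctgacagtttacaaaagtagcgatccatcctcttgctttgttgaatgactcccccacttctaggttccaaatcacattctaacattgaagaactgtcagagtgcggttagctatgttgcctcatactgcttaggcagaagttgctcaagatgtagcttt
Mmp12 window 1, chr9:7344147-7344396, plus strand: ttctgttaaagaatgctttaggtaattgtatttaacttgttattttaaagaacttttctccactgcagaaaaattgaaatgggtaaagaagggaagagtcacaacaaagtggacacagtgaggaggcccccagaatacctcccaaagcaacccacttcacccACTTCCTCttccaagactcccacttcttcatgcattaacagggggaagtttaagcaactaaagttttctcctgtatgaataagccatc
Mmp12 window 2, chr9:7347124-7347373, plus strand: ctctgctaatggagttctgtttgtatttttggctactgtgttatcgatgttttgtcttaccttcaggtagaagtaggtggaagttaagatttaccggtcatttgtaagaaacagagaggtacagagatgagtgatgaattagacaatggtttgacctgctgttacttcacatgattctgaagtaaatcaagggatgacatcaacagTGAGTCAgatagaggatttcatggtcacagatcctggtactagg
Adam10, chr9:70678732-70678981, plus strand: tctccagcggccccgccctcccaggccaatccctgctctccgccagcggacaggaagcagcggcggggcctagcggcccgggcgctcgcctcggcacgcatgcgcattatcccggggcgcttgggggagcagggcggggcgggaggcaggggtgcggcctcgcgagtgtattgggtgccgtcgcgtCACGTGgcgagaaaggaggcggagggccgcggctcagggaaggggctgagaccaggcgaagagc

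The core letters of the PU.1 motif, named for a transcription factor of macrophages, were present in Mmp8 (221 to 214 bases before the start) and in the first Mmp12 window (88 to 81 bases before it). Both matches lay on the opposite strand, and 2.44% of 32851 promoter windows of the same length held these letters. The second Mmp12 window, at a start site within the gene, held an AP-1 match (44 to 38 bases before the start), found in 6.75% of windows. Adam10 held an E-box (64 to 59 bases before the start), found in 6.02%. None of the 7 motifs was found in the windows of Hpse and Adam8 or in those of Adam17, Mmp14 and Timp2. GAS letters were present in 7.02% of all windows, ISRE letters in 7.13%, NF-kB letters in 3.72% and the TATA box in 12.4%. The windows also differed in base composition: GC content was 40.0% and 39.6% for Mmp12 and 44.8% for Mmp8, 52.8% for Adam8, 66.8% for Hpse and 74.0% for Adam10, against a median of 52.4% over all windows. These matches are descriptions of the letters and not of binding.

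Library totals were 46.2 M to 58.3 M counts (M, mega). Levels are given as counts per M (CPM) of a total scaled by TMM, a factor that aligns most genes between libraries. Microglial markers were abundant in every library: the summed CPM of 9 markers (Tmem119, P2ry12 and others) was 10814 to 11993 in healthy, 3360 to 5413 in control EAE and 5720 to 8525 in metformin libraries other than replicate 22. Metformin replicate 22 stood apart, with a marker sum of 11426 CPM, in the healthy range. For all 10 genes its level lay outside the range of the other 5 metformin libraries, and for 4 of them (Adam8, Adam17, Mmp8 and Mmp12) it lay within the healthy range. The log2 changes of the 10 genes in metformin libraries are therefore given with and without it. Markers of other cells were abundant too: 7 oligodendrocyte markers (Mbp and others) summed to 3353 to 3805 CPM in healthy and 2650 to 3382 CPM in control EAE libraries. In bulk RNA, fewer cells of a type and less RNA per cell cannot be told apart.

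**Figure D1:**
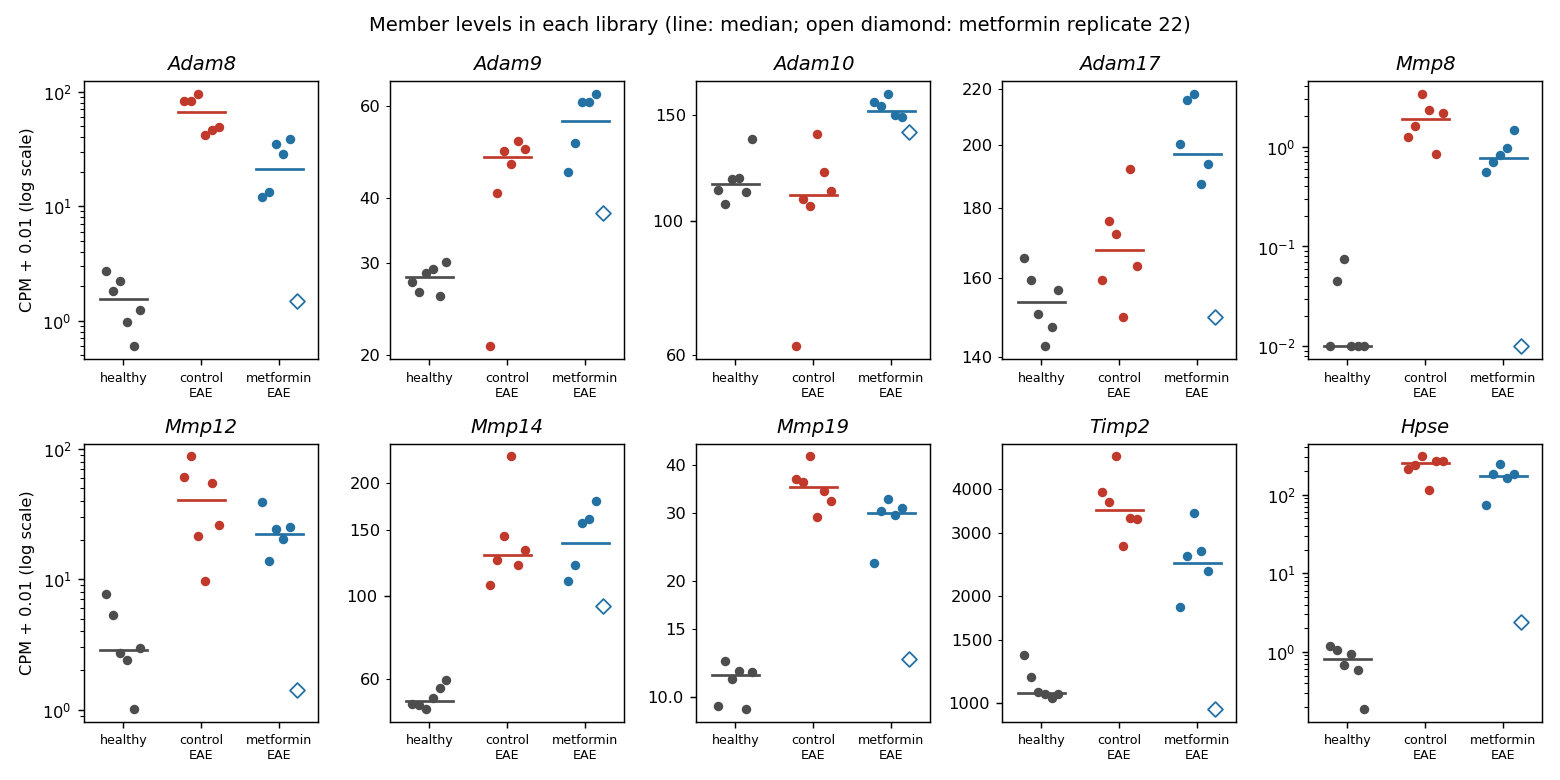
Level of each of the 10 genes in each of the 18 libraries, as CPM + 0.01 on a log axis; points are libraries, lines are group medians, and the open diamond is metformin replicate 22. Hpse, Adam8, Mmp8 and Mmp12 differ most between healthy and control EAE libraries, while Adam10 and Adam17 differ little, and the diamond lies outside the other 5 metformin libraries in all 10 panels.

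The first comparison asked which of these genes differ between EAE and health under control treatment. Of the 10 genes, 8 were called higher in control EAE by edgeR's quasi-likelihood test over all 16740 genes tested (Benjamini-Hochberg adjusted p under 0.05), and 0 were called lower; of all genes tested, 31.7% were called higher and 30.7% lower. For 7 of the 10 the groups did not overlap, as for 20.1% of all genes in this direction. The members' median log2 change was 1.69 and that of all genes -0.0029. Nothing is read from these counts, because the genes were chosen on this contrast.

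Mmp8, the neutrophil collagenase that cuts fibrillar collagen, was close to absent in health. It was at 0 in healthy replicates 3, 12, 19 and 20, where 3 counts would be 0.0475 to 0.0535 CPM, and at 0.0354 and 0.0643 CPM in replicates 4 and 11. In control EAE replicates 1, 2, 9, 10, 17 and 18 it was at 1.23, 1.6, 3.37, 2.33, 0.84 and 2.14 CPM. All 6 EAE libraries were thus above all healthy ones, but the level stayed low. The healthy libraries held 6 Mmp8 counts in all and the control EAE libraries 523, a ratio of CPM of 112 (exact 95% interval 51.1 to 307, counting error only). The interval takes every count as independent, and it is too narrow if a fragment counts as 2. Mmp8 passed the filter on low counts only through its EAE libraries.

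Mmp12, the macrophage elastase, had the widest spread of the 10 among control EAE libraries for its mean. Its healthy levels were 7.69, 5.27, 2.73, 2.38, 0.998 and 2.96 CPM in replicates 3, 4, 11, 12, 19 and 20. Its control EAE levels were 60.7, 87.9, 21.6, 9.71, 54.8 and 26.0 CPM in replicates 1, 2, 9, 10, 17 and 18. The groups did not overlap, although control EAE replicate 10 came close to the highest healthy library. The log2 change was 3.57 ± 0.67 (SE), and the standard deviation in control EAE was 67.6% of the mean.

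Mmp14, the membrane-anchored collagenase that also activates Mmp2, was well expressed in health, at 49.9 to 59.8 CPM (median 52.5). Control EAE replicates 1, 2, 9, 10, 17 and 18 held 107, 124, 144, 235, 121 and 132 CPM. Replicate 10 was the highest for Mmp14 while it was the lowest for Mmp12 and Hpse. The log2 change of Mmp14 was 1.42 ± 0.17, and 1.23 without control EAE replicate 10. Mmp19, a secreted enzyme that cuts basement membrane proteins, was at 9.31 to 12.4 CPM in healthy and 29.3 to 42.0 CPM in control EAE libraries. Its groups lay far apart for their spread, with a log2 change of 1.68 ± 0.17. Mmp19 shares 789 exon bases with Tmem198b on the opposite strand, which had 23360 counts over the 18 libraries against 21299 for Mmp19. Whether the counting used strand is not given in the sources used here, so the level of Mmp19 is uncertain. Smaller exon overlaps on the opposite strand joined Adam17 and Iah1 (311 bases, 159250 counts against 20052), Adam8 and Gm16201 (46 bases, 24615 against 1793) and Mmp12 and Mmp1b (157 bases, Mmp1b at 0).

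Timp2, the inhibitor that binds many metalloproteinases and also links Mmp14 to the Mmp2 precursor, was the most abundant of the 10. Healthy replicates 3, 4, 11, 12, 19 and 20 held 1367, 1186, 1072, 1063, 1032 and 1062 CPM. Control EAE replicates 1, 2, 9, 10, 17 and 18 held 3928, 3674, 4937, 2755, 3322 and 3291 CPM. The lowest EAE library thus held more than the highest healthy one, and the log2 change was 1.69 ± 0.21. Per kilobase of exon, Timp2 made up 81.6% of the summed level of the 10 genes in health and 84.1% in control EAE. The ratio of Timp2 to Mmp14 per kilobase was 27.2 to 40.7 in healthy and 17.9 to 56.2 in control EAE libraries, so these ranges overlapped.

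Among the sheddases, Adam8, a proteinase of myeloid cells that cuts adhesion molecules, separated the groups most. Its healthy levels were 2.69, 1.82, 2.22, 0.964, 0.586 and 1.24 CPM in replicates 3, 4, 11, 12, 19 and 20. Its control EAE levels were 83.4, 83.1, 96.2, 42.2, 46 and 48.9 CPM in replicates 1, 2, 9, 10, 17 and 18. Every EAE library was above every healthy one, with replicates 1, 2 and 9 at 83.1 CPM or more and the other three at 48.9 CPM or less. The log2 change was 5.39 ± 0.62.

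Adam9, a widely expressed sheddase, was at 26.0 to 30.1 CPM in health. Control EAE replicate 1 held 20.8 CPM, below all healthy libraries, and the other five held 40.9 to 51.4 CPM, above all of them. The log2 change was 0.62 ± 0.17, and 0.77 without that replicate. Adam10, the main sheddase of Notch receptors and of the amyloid precursor protein, was at 107 to 137 CPM in healthy libraries. It was at 62.0 CPM in control EAE replicate 1 and at 106 to 140 CPM in the other five, so the groups overlapped widely. The log2 change of Adam10 was -0.12 ± 0.13, and 0.0046 without replicate 1. Adam17, the enzyme that releases TNF and its receptors, was at 142 to 165 CPM in healthy and 150 to 192 CPM in control EAE libraries, with a log2 change of 0.14 ± 0.09. Neither Adam10 nor Adam17 was called with TMM scaling. Scaling to library totals alone lowered the median of all genes by 0.42 (log2), and under it Adam10 (-0.52) and Adam17 (-0.29) were called lower and Adam9 (0.21) was not called. Relative to that shift the changes were -0.10, 0.14 and 0.63.

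Hpse, the only mammalian enzyme known to cut heparan sulfate chains internally, had the largest log2 change of the 10. Healthy replicates 3, 4, 11, 12, 19 and 20 held 1.18, 1.04, 0.675, 0.930, 0.570 and 0.177 CPM. Control EAE replicates 1, 2, 9, 10, 17 and 18 held 211, 236, 306, 115, 269 and 264 CPM. The 2 groups lay apart by a factor of about 306 in the fit (log2 change 8.26 ± 0.83), and replicate 10 was again the lowest EAE library. Per kilobase, Hpse was the ninth of the 10 genes in health, at 0.217 ± 0.104 CPM per kb (SD, n = 6), and the second in control EAE, at 66.4 ± 18.8. Its closest neighbour below, Mmp14 at 24.2 ± 7.77 CPM per kb, overlapped it in range, as did all neighbouring pairs in control EAE except Timp2 and Hpse.

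**Figure D2:**
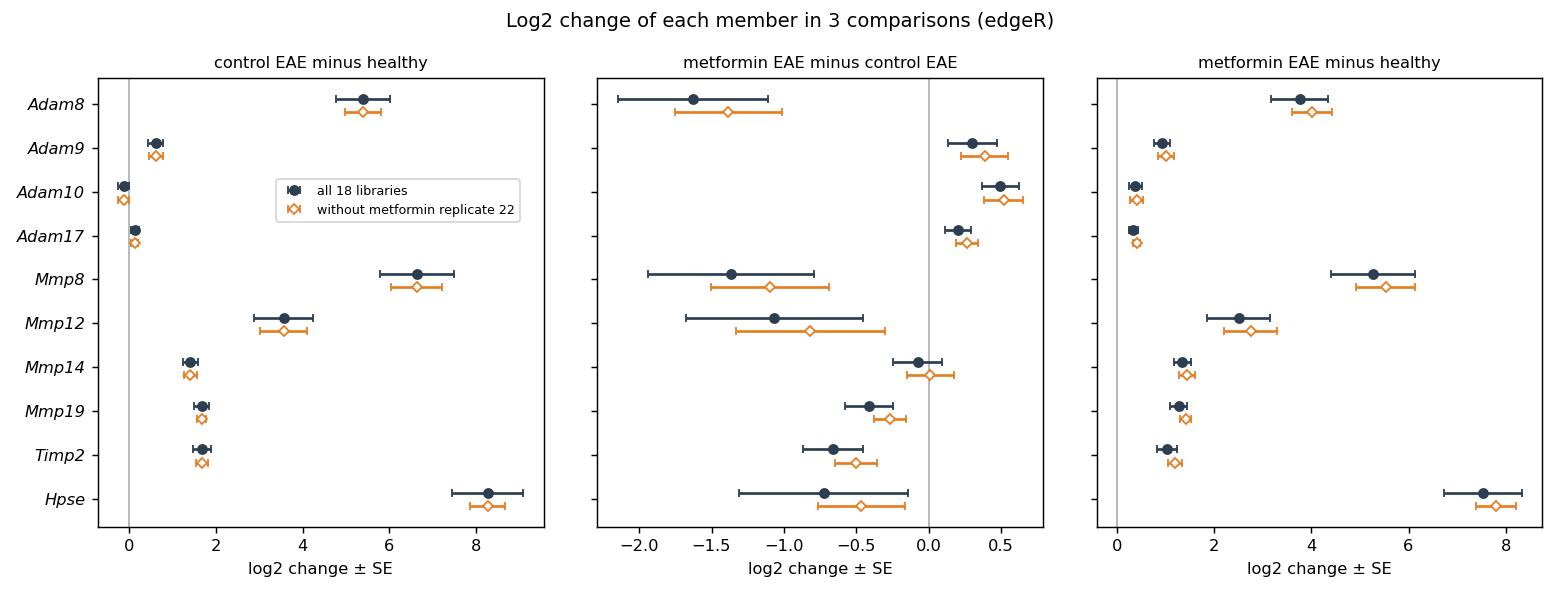
Log2 change of each of the 10 genes with its standard error, for control EAE minus healthy (left), metformin EAE minus control EAE (middle) and metformin EAE minus healthy (right), from the fit to all 18 libraries (filled) and without metformin replicate 22 (open). The horizontal scales differ between panels; Hpse has the largest change against health on the left and right, and in the middle Adam8 lies lowest and Adam10 highest.

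The second comparison asked how metformin libraries differed from control EAE libraries. Of the 10 genes, 1 was called higher and 2 were called lower, where 12.5% of all genes tested were called higher and 12.1% lower. The members' median log2 change was -0.54 and that of all genes 0.01. Adam10 was higher without overlap (4.90% of all genes), at 158, 155, 163, 150, 149 and 141 CPM in metformin replicates 5, 6, 13, 14, 21 and 22, all above the highest control EAE library. Its log2 change was 0.50 ± 0.13, and 0.52 ± 0.13 without replicate 22. Without control EAE replicate 1, the low library, it was 0.38, and it was called there too.

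Adam8 was lower without overlap (5.44% of all genes). Metformin replicates 5, 6, 13, 14, 21 and 22 held 12, 13.2, 34.7, 28.9, 38.9 and 1.49 CPM, and the lowest control EAE library held 42.2 CPM. The log2 change was -1.63 ± 0.52, and -1.38 ± 0.37 without replicate 22. The call was lost when control EAE replicate 1, 2 or 9 or metformin replicate 5 or 6 was left out, with adjusted p-values of up to 0.0649 in the same test. It was also lost with only the 2 groups fitted (0.0548) and with no filter on low counts (0.0613). Timp2 was at 1859, 2594, 3414, 2675, 2352 and 961 CPM in metformin replicates 5, 6, 13, 14, 21 and 22. These overlapped the control EAE range of 2755 to 4937 CPM through replicate 13 alone. The log2 change was -0.66 ± 0.21, or -0.50 ± 0.15 without replicate 22, and the call was lost without control EAE replicate 9 or metformin replicate 5 (adjusted p up to 0.0657) and with only the 2 groups fitted (0.0707).

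The other 7 genes were not called in this comparison. Hpse held 73.1, 182, 245, 162, 184 and 2.36 CPM in metformin replicates 5, 6, 13, 14, 21 and 22, against 115 to 306 CPM in control EAE. Its log2 change was -0.72 ± 0.59, and -0.46 ± 0.30 without replicate 22. Mmp12 held 39.3, 13.9, 24.2, 20.5, 25.3 and 1.41 CPM and Mmp8 0.545, 0.693, 0.812, 0.967, 1.47 and 0 CPM in the same order. Both overlapped control EAE, with log2 changes of -1.06 ± 0.61 and -1.36 ± 0.57. Without replicate 22 these were -0.82 ± 0.51 for Mmp12 and -1.10 ± 0.41 for Mmp8.

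Mmp14 was nearly level between these groups. It held 93.7 CPM in replicate 22 and 109 to 179 CPM in the other metformin libraries. Its log2 change was -0.08 ± 0.17, and it turned to 0.01 without metformin replicate 22 and to 0.12 without control EAE replicate 10. Mmp19 was at 12.6 CPM in replicate 22 and 22.2 to 32.6 CPM in the others (log2 change -0.41 ± 0.17, and -0.27 ± 0.11 without replicate 22). Adam9 was at 37.4 CPM in replicate 22 and 44.9 to 63.4 CPM in the others (0.30 ± 0.17, and 0.39 ± 0.16 without replicate 22). Adam17 was at 150 CPM in replicate 22 and 187 to 218 CPM in the others (0.20 ± 0.09), and without replicate 22 it was called higher, at 0.27 ± 0.08. Of all genes, 8.50% were called higher and 9.84% lower without that library. Scaling to library totals alone raised the median of all genes by 0.23, and Adam9 (0.50) and Adam17 (0.42) were then called higher and Mmp14 stood at 0.11.

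The third comparison, of metformin EAE with healthy libraries, shares its libraries with the first and the second. All 10 genes were called higher (20.3% of all genes tested), with a median log2 change of 1.31 against -0.00092 for all genes. For 5 of the 10 the groups did not overlap, as for 6.82% of all genes. Without metformin replicate 22 all 10 were without overlap, as were 18.9% of all genes. Nothing is read from these counts either, because the genes were chosen with their values in all 3 groups known. Mmp8 is among them, although it did not pass the filter with the metformin and healthy libraries alone. The log2 change was 7.53 ± 0.80 for Hpse, 5.27 ± 0.86 for Mmp8, 3.76 ± 0.59 for Adam8 and 2.5 ± 0.65 for Mmp12. These were the 4 genes with the lowest levels per kilobase in health. Mmp14 (1.34 ± 0.17), Mmp19 (1.27 ± 0.17), Timp2 (1.03 ± 0.21) and Adam9 (0.93 ± 0.17) followed. Adam10 (0.38 ± 0.13) and Adam17 (0.34 ± 0.09) changed least, and neither was called with library totals alone (0.18 and 0.13). The Adam10 call was also lost without healthy replicate 4 or metformin replicate 13 (adjusted p 0.0522 and 0.0519). Without metformin replicate 22 the log2 changes of Hpse, Mmp8, Adam8 and Mmp12 were 7.79 ± 0.41, 5.53 ± 0.60, 4.01 ± 0.41 and 2.75 ± 0.54. Those of Mmp14, Mmp19, Timp2 and Adam9 were 1.43 ± 0.16, 1.41 ± 0.11, 1.19 ± 0.15 and 1.01 ± 0.16, and those of Adam10 and Adam17 were 0.40 ± 0.13 and 0.40 ± 0.08. All 10 were larger than with that library, and all 10 were called there too. Side by side, Adam10 and Adam17 stood at -0.12 and 0.14 in control EAE against health and at 0.38 and 0.34 in metformin EAE against health.

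Per kilobase, Timp2 also led in metformin libraries, with 79.8% of the summed level of the 10 genes. Hpse was the second at 40.2 ± 25 CPM per kb, and Adam10 the third at 31.1 ± 1.59. The ratio of Adam10 to Adam17 per kilobase was 0.976 to 1.27 in healthy, 0.566 to 1.36 in control EAE and 1.05 to 1.37 in metformin libraries, and these ranges overlapped. The ratio of Timp2 to Mmp14 per kilobase was 15.7 to 33.4 in metformin libraries, and its range overlapped both other groups.

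The rest of these families was taken whole by symbol, which left 50 genes other than the 10 that passed the filter. In control EAE 17 of them rose and 19 fell, with a median log2 change of -0.15. Of all genes, 31.7% were called higher and 30.7% lower (62.4% in either direction). With library totals alone 11 rose and 26 fell. Of 9 other ADAM genes 7 fell, among them the adhesion receptors without protease activity Adam23 (-1.23 ± 0.17, adjusted p 6.7e-06) and Adam11 (-1.30 ± 0.27, adjusted p 0.000346). Adam33, an ADAM of mesenchymal cells, rose by 2.97 ± 0.46 (adjusted p 1.77e-05). Of 20 ADAMTS and ADAMTS-like genes, secreted relatives that include the enzymes cutting aggrecan, 5 rose and 8 fell. Adamts4, such an aggrecanase, fell by 1.07 ± 0.15 (adjusted p 4.49e-06), Adamts16 changed by -3.01 ± 0.43 (9.3e-06) and Adamts15 by 2.18 ± 0.35 (2.11e-05).

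Of 12 other MMP genes 7 rose and 4 fell in control EAE. For these and the counts below, 31.7% of all genes were called higher and 30.7% lower. Mmp28 (-3.07 ± 0.30, adjusted p 1.78e-07) and the membrane-type Mmp15 (-1.66 ± 0.21, 1.78e-06) fell, and the gelatinase Mmp2, the enzyme that Mmp14 and Timp2 activate together, rose by 0.77 ± 0.14 (0.000102). Mmp3, also called higher, had 0 counts in all healthy libraries and a mean of 1.4 CPM in control EAE, and it was named after its values were seen. Of the other 3 inhibitors, Timp1 (7.0 ± 0.82, adjusted p 1.54e-06) rose from a mean of 0.0392 to 5.37 CPM and Timp3 (0.96 ± 0.14, 6.07e-06) from 20.1 to 39.2 CPM. The healthy Timp1 mean lay below the level of 3 counts, so Timp1 passed the filter only through EAE libraries. Its SD in control EAE was 4.85 CPM. Timp4 did not pass the test. Of 6 hyaluronidase genes, which cut hyaluronan, Hyal1 (0.69 ± 0.17, adjusted p 0.00169) and Cemip (0.98 ± 0.29, 0.00643) rose. Hpse2, the relative of Hpse without known enzyme activity, did not pass the filter.

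**Figure D3:**
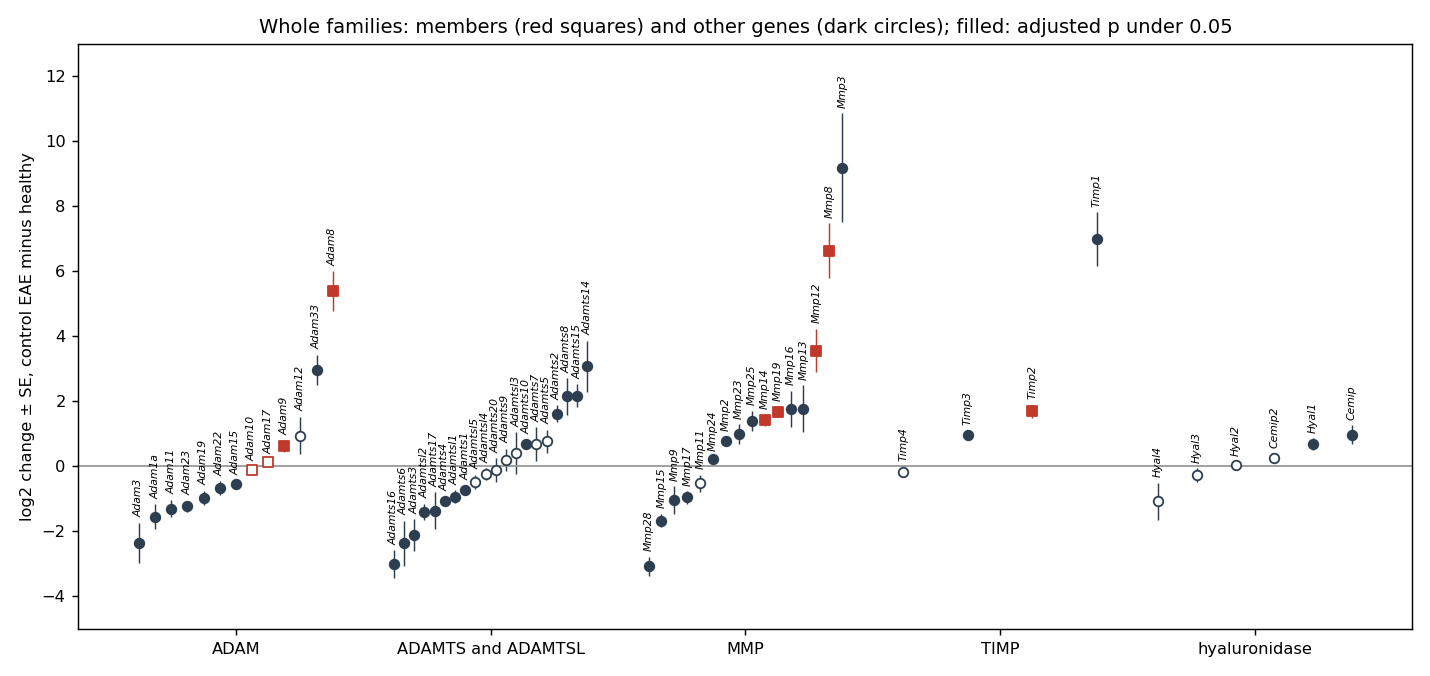
Log2 change with its standard error, control EAE minus healthy, for the genes of 5 families that passed the filter; red squares are members, dark circles the other family genes, and filled symbols have an adjusted p under 0.05. Adam8 and Timp1 lie highest in their families, and Mmp3, at 0 in healthy libraries, lies above Mmp8. Of 9 other ADAM genes 7 lie below 0 and are filled, where 30.7% of all genes were called lower.

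Between metformin and control EAE libraries 5 of the 50 other family genes rose and 6 fell (24.6% of all genes were called), with a median of 0.01; with library totals alone 13 rose and 3 fell, and leaving out replicate 22 gave 3 and 7. Timp3 fell by 0.81 ± 0.14 (adjusted p 0.00123), Hyal1 by 0.68 ± 0.17 (0.00841) and Cemip by 1.0 ± 0.29 (0.0184). Adamts1, an aggrecanase, rose by 0.63 ± 0.13 (0.00283), Adam23 by 0.65 ± 0.17 (0.0114; 0.39 without replicate 22) and the membrane-anchored Mmp25 by 1.04 ± 0.31 (0.0206). Adam33 (-1.59 ± 0.43, 0.0124), Adamts15 (-1.40 ± 0.34, 0.00626) and the membrane-type Mmp24 (-0.35 ± 0.08, 0.0048) fell. Adamts16 (1.27 ± 0.42, 0.0334) did not pass without replicate 22 (0.68, adjusted p 0.137). Against health, 9 of the 50 were higher and 13 lower in metformin libraries (36.6% of all genes were called). Mmp25 was higher by 2.43 ± 0.33 and Timp1, close to absent in health, by 5.84 ± 0.82, and Mmp28 changed by -2.38 ± 0.29.

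The proteins that mature or guide the 2 main sheddases were taken as a list of 9 partners. In control EAE 3 rose and 3 fell (31.7% and 30.7% of all genes tested). Rhbdf2, the iRhom that carries Adam17 to the surface in macrophages, rose by 1.57 ± 0.16 (adjusted p 2.92e-07), and its relative Rhbdf1 fell by 1.14 ± 0.17 (1.29e-05). Tspan14, a tetraspanin that binds Adam10, fell by 0.78 ± 0.10 (2.93e-06). With metformin against control EAE, the Adam10-binding tetraspanins Tspan33 (0.79 ± 0.16, 0.00297) and Tspan17 (-0.53 ± 0.11, 0.00279) moved apart.

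Of 19 known sheddase substrates 5 rose and 10 fell in control EAE (62.4% of all genes were called in either direction), with a median log2 change of -0.49. The adhesion molecule Vcam1 (2.63 ± 0.26, adjusted p 2.97e-07) and the receptor kinase Axl (3.48 ± 0.35, 3.59e-07) rose, and Efnb1, a ligand of Eph receptors, fell by 1.64 ± 0.16 (1.97e-07). With metformin against control EAE 7 of the 19 rose and 0 fell (12.5% and 12.1% of all genes), with a median of 0.17. Without replicate 22, 6 rose (8.50% of all genes). Notch1 rose by 0.65 ± 0.13 (0.00299), the microglial survival receptor Csf1r by 0.89 ± 0.19 (0.0032) and Nrg1 by 1.20 ± 0.28 (0.00583). These are RNA levels, and shed proteins were not measured.

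Of 12 genes that activate or restrain matrix proteases 8 rose and 2 fell in control EAE, where 31.7% of all genes were called higher and 30.7% lower. The urokinase receptor Plaur (3.59 ± 0.40, adjusted p 1.08e-06) and urokinase itself, Plau (2.64 ± 0.33, 2.75e-06), were among those that rose. With metformin against control EAE Bsg, an inducer of metalloproteinases, was the only 1 of the 12 called (-0.33 ± 0.10, 0.0277), and it did not pass without replicate 22 (0.0531).

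Of 33 genes of heparan sulfate proteoglycans and their turnover 14 rose and 8 fell in control EAE (62.4% of all genes were called), with a median log2 change of 0.09. The lysosomal glucuronidase Gusb (1.46 ± 0.15, adjusted p 2.46e-07), Ctsl, the protease that activates the heparanase precursor (1.45 ± 0.15, 2.78e-07), and the proteoglycan Sdc4 (0.96 ± 0.10, 3.87e-07) rose beside Hpse. With metformin against control EAE 6 rose and 4 fell (24.6% of all genes were called), or 3 and 3 without replicate 22. Sdc4 fell by 0.48 ± 0.10 (0.00342), while the proteoglycan Gpc2 (0.69 ± 0.14, 0.00281) and the lysosomal sulfatase Ids (0.67 ± 0.14, 0.00287) rose.

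Of 23 matrix proteins, the substrates of the metalloproteinases, 15 rose and 6 fell in control EAE (31.7% and 30.7% of all genes), with a median log2 change of 1.82. Fibronectin, Fn1 (6.39 ± 0.72, adjusted p 1.32e-06), and osteopontin, Spp1 (6.21 ± 0.74, 2.33e-06), rose, and brevican, Bcan, fell by 2.02 ± 0.25 (1.56e-06). With metformin against control EAE 4 rose and 0 fell (12.5% and 12.1% of all genes), or 2 and 0 without replicate 22. The brain proteoglycans Ncan (1.8 ± 0.34, 0.00243) and Bcan (0.91 ± 0.24, 0.011) rose, and without replicate 22 these changes were 1.26 and 0.50. Acan (1.08 ± 0.33, 0.0218) did not pass without replicate 22 (0.0829). Over the 5 lists, library totals alone gave 36 higher and 43 lower genes in control EAE against 45 and 29 with TMM scaling, and 29 higher and 2 lower with metformin against 18 and 6.

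Against health, metformin libraries had 2 partners higher and 2 lower, 6 substrates higher and 7 lower, 6 activators or inhibitors higher and 2 lower, 14 heparan sulfate genes higher and 5 lower, and 14 matrix genes higher and 4 lower. Of all genes tested, 20.3% were higher and 36.6% were called in either direction. Rhbdf2 (1.23 ± 0.16, adjusted p 1.7e-05), Vcam1 (2.70 ± 0.26, 1.65e-06), Plaur (2.86 ± 0.39, 3.81e-05), Gusb (1.0 ± 0.15, 4.34e-05) and Fn1 (5.96 ± 0.70, 1.41e-05) were among the higher ones.

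Marker sums of other cells also differed between the groups, some higher and some lower in control EAE than in health. The summed CPM of 8 fibroblast and mural cell markers was 35.8 to 165 in healthy, 607 to 1692 in control EAE and 306 to 679 in metformin libraries other than replicate 22, which held 79.4. Most of that sum in control EAE was Igf2 (mean 454 CPM) and Col1a1 (210 CPM). Of the 8, 6 were called higher in control EAE and 1 lower (31.7% and 30.7% of all genes). The lower one was the mural cell marker Rgs5 (-2.31 ± 0.46), and Acta2 was not called. The 8 border macrophage markers summed to 0.808 to 2.43, 53.7 to 107 and 22.7 to 46.3 CPM in the same order of groups. Replicate 22 held 3.59 CPM of them, and Pf4 and Clec10a were at 0 throughout. Most of that sum in control EAE was Ms4a7 (mean 56.2 CPM), while Mrc1 had a mean of 1.13 CPM there. The 10 markers of monocyte-derived cells summed to 8.43 to 21.9, 342 to 633 and 244 to 670 CPM, with 27.8 in replicate 22. Most of that sum was Fn1 and Cd44, and without them it was 3.03 to 4.39, 12.8 to 53.8 and 12.8 to 23.3 CPM. Ccr2, a defining gene of monocytes, was at 0.634 to 1.69 CPM in healthy and 0.409 to 1.81 CPM in control EAE libraries, so these ranges overlapped.

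The neutrophil list bears on Mmp8, which neutrophils store. Without Csf3r, which was at 255 to 330 CPM in healthy libraries, its 9 genes summed to 0 to 0.62 CPM in healthy, 1.92 to 19 CPM in control EAE and 1.45 to 8.35 CPM in metformin libraries other than replicate 22, which held 0.906 CPM. Most of that sum in control EAE was Lcn2 (mean 5.6 CPM). Camp, Ltf, Ngp, Retnlg and Cxcr2 were each at most 0.22 CPM there. Ly6g was at 0 in all libraries and S100a8 was at most 4.36 CPM. The 8 T cell markers summed to 0 to 0.448 CPM in healthy, 1.38 to 6.10 in control EAE and 0.996 to 3.79 in metformin libraries other than replicate 22, which held 0.489, with Cd2 and Trac at 0. The 6 endothelial markers summed to 8.56 to 23.3, 56.4 to 140 and 55.2 to 106 CPM, with 12.5 in replicate 22 and Cldn5 at 0. Most of that sum in control EAE was Flt1 (mean 84.6 CPM). Of the 5 endothelial markers tested, 3 were called higher and 2 lower in control EAE (31.7% and 30.7% of all genes). The lower ones were Tek (-1.61 ± 0.61) and Slco1a4 (-1.66 ± 0.56). The 8 neuron markers, beside which Bcan, Ncan, Adam11 and Adam23 are set here, summed to 336 to 466 CPM in healthy, 145 to 219 in control EAE and 191 to 254 in metformin libraries other than replicate 22, which held 466. For all these lists, their part in the results was not tested. Whether genes at 0 in all libraries, such as Ly6g and Cldn5, were absent or not counted was not tested either. Of the microglial markers themselves 8 of 9 fell in control EAE, where 30.7% of all genes were called lower. With metformin 7 were higher than in control EAE, where 12.5% of all genes were called higher. These 7 include metformin replicate 22, and Olfml3 was not called without it (adjusted p 0.0769).

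After the group means were subtracted, likeness between genes within groups is described by Pearson's r of log2(CPM + 1) over 18 libraries, where all genes of a library share its depth and composition. The most alike pairs of the 10 were Mmp19 and Hpse (r = 0.91), Timp2 and Hpse (0.91) and Adam8 and Timp2 (0.90). Without metformin replicate 22 these values were 0.66, 0.79 and 0.71, and the most alike pair was Adam9 and Adam10. For Adam9 and Adam10 r was 0.80 with and 0.82 without metformin replicate 22. Control EAE replicate 1 lay far below its group mean for both genes (by -0.96 for Adam9 and -0.75 for Adam10). It weighs heavily in this r, and r without it was not computed. Mmp12 and Mmp14 had r = -0.10, and -0.64 without metformin replicate 22. The genes closest to Timp2 among 9394 candidates were Lamp1 (0.98), Gsto1 (0.98) and Ctsb (0.97), and Lamp1 remained closest without replicate 22 (0.96). The closest to Hpse were Gla, Myof and Igf2r (all 0.98), and without replicate 22 Slc36a4 (0.91). Lyz2 (0.96) was closest to Adam8, Rab5a (0.96) to Adam10, Arid5b (0.94) to Adam9 and Slc44a1 (0.90) to Adam17. Lpp (0.95) was closest to Mmp14, Xdh (0.94) to Mmp19, Cd48 (0.91) to Mmp12 and Ms4a6c (0.88) to Mmp8. Without replicate 22 Slc44a1 (0.87) and Lpp (0.95) were still closest to Adam17 and Mmp14. The closest were then Anxa4 (0.91) to Adam8, Rnf115 (0.95) to Adam9, Msl2 (0.96) to Adam10, Lyplal1 (0.83) to Mmp19, Urb2 (0.91) to Mmp12 and Ly6e (0.93) to Mmp8.

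**Figure D4:**
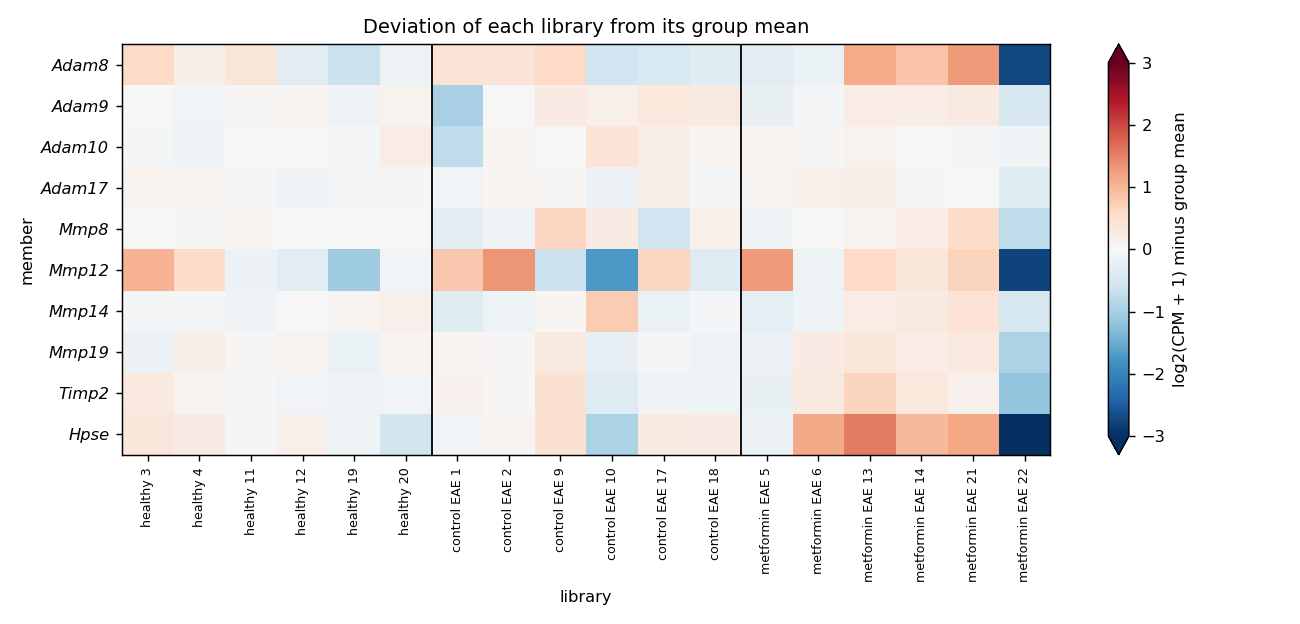
Deviation of each library from its group mean, as log2(CPM + 1), for the 10 genes (rows) and 18 libraries (columns, with vertical lines between groups). Metformin replicate 22 is the darkest column, with all 10 genes below their group mean, control EAE replicate 1 is low for Adam9 and Adam10, and control EAE replicate 10 is low for Mmp12 and Hpse and high for Mmp14.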

How the data were processed

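RNA of spinal cord microglia was counted in 18 libraries. Per the labels' protocols, RNA was isolated with a Direct-zol kit and libraries were made with a KAPA stranded mRNA kit. The submitters' processing notes name bcl2fastq 2.17, FastQC, Trimmomatic and mm10. The aligner, counter, annotation and strand setting were not given in the sources used here. The authors' deposited table holds whole-number counts for 39017 Ensembl genes, and GENCODE M21 gave 37607 a symbol. Of counts from 1 to 20 in a library, 69.8% to 79.0% were even, so a fragment may count as 2. Intervals and floors (3 counts) cover counting error only, with each count taken as independent. Replicates were checked for duplicates (lowest chi-square per degree of freedom 15.5). After filterByExpr (a count of 10 at the median library size in 6 libraries, 15 in total) 16740 genes entered 1 edgeR 4.0.16 fit of all 18 libraries (TMM, robust quasi-likelihood F test, R 4.3.3, Benjamini-Hochberg adjusted p under 0.05), checked on simulated data. The standard error is the log2 change divided by the square root of F. Alternatives included DESeq2 1.42.0 and are given in the closing section. The members and lists were chosen with earlier results of these data known. Named genes are the 10 members, the 3 other genes with the smallest adjusted p of each family and list, and the 3 genes most like each member (mean of at least 5 CPM); 1 gene that this rule names is not reported here. Summaries and figures were made in Python 3.11.15 (matplotlib 3.10.9; pandas 2.3.3; scipy 1.17.1).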

Additional observations from a re-analysis of the deposited data

Results flagged for a closer look

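In 4 of 30 groups of 6 libraries (10 genes in 3 groups) 1 library lay apart from the other five on log2(CPM + 1) by a share of the group's range above Dixon's 95% critical value for 6 values. Chance sets apart about 1 group in 20. Adam9 was at 20.8 CPM in control EAE replicate 1 and at 40.9 to 51.4 CPM in the other five. Adam10 was at 62.0 CPM in the same library and at 106 to 140 CPM in the others. Mmp12 was at 1.41 CPM in metformin replicate 22, against 13.9 to 39.3 CPM in the other metformin libraries. Hpse was at 2.36 CPM in metformin replicate 22, against 73.1 to 245 CPM in the others. That library held 130 Hpse counts and 78 Mmp12 counts, and Apoe made up 0.834% of its total count, against 6.71% to 9.24% in the other metformin libraries. The part of its composition in these values was not tested.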

How the results depend on the processing

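Each of the 30 member values (10 genes in 3 comparisons) was refitted under 8 other settings and with each of the 18 libraries left out. Direction and side of the threshold were kept in 224 of 236 refits under other settings and in 526 of 540 with a library left out. Library totals alone moved the median of all genes by -0.42 (control EAE against healthy), 0.23 (metformin against control EAE) and -0.20 (metformin against healthy). Under it, in the first comparison 2604 genes were higher and 8649 lower (5314 and 5138 with TMM), 7 members were higher and 2 lower, 11 other family genes were higher, and Adam17 turned to -0.29. In the second, 4712 genes were higher and 616 lower (2087 and 2024 with TMM), 3 members, 13 other family genes and 29 of the 96 genes of the 5 lists (partners, substrates, protease control, heparan sulfate and matrix) were higher, 3 family genes and 2 list genes were lower, and Mmp14 turned to 0.11. In the third, 1927 genes were higher and 4786 lower (3405 and 2730 with TMM). With only the 2 groups compared, 1292 genes and 3 family genes were higher with metformin than in control EAE, 0 members and 2 list genes were lower, and the adjusted p was 0.0548 for Adam8 and 0.0707 for Timp2. Without a filter Adam8 was no longer called there (adjusted p 0.0613), which left 1 member lower. With counts halved and rounded, chosen after seeing the data, Mmp8 was called lower there (adjusted p 0.0429). With single libraries left out of that comparison, 1 to 2 members were higher and 0 to 3 lower, 3 to 6 family genes were higher, and 3 to 9 list genes were lower. Mmp19 was called lower without metformin replicate 13 (adjusted p 0.0494), Mmp14 ranged from -0.17 to 0.12 (above 0 without control EAE replicate 10 or metformin replicate 22), and Adam10 in control EAE against healthy turned to 0.0046 without control EAE replicate 1. The causes were not tested. Mmp8 could not be fitted with at least 1 CPM in 6 libraries, nor with only the metformin and healthy libraries, since it did not pass those filters. No paired analysis was possible because the groups share no replicate number; with the run of replicate numbers as a term no member changed its call. Low counts limit the precision of Mmp8.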

Other observations

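Within control EAE, the 6 libraries ordered the genes differently. Replicate 10 was the lowest for Hpse, Mmp12, Mmp19, Timp2, Adam8 and Adam17 and the highest for Mmp14 and Adam10. It also had the lowest sum of microglial markers (3360 CPM, against 4028 to 5413 in the other five) and the highest sum of the monocyte list (633 CPM, against 342 to 487). Most of the monocyte sum was Fn1 and Cd44, and without them it was 53.8 CPM, against 12.8 to 26.5. The border macrophage sum of replicate 10 was the lowest (53.7 CPM, against 53.8 to 107). The part of these values in the order of the genes was not tested.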
